A study of Mus musculus with 22 samples.

Results

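The comparison described here is the effect of cannabidiol (CBD) on gene expression in the whole brain of aged, chemically exposed mice, pooled over mice that did and did not receive lipopolysaccharide (LPS). Its members are the 8 libraries of exposed mice given CBD (groups GWCBD30 and GWCBD30LPS) and the 8 libraries of exposed mice given vehicle (groups GWVeh and GWVehLPS), 16 of the 22 libraries of the series, and they were chosen by their labels alone. All 16 mice were male C57BL/6J mice that had been injected once daily for 10 days, from 10 weeks of age, with 0.7 mg/kg pyridostigmine bromide, a cholinesterase inhibitor, and 200 mg/kg permethrin, a pyrethroid insecticide. They were aged to 17.5 months before treatment. CBD was injected at 30 mg/kg every day for 28 days and then on alternate days for 2 weeks, and vehicle mice received the carrier. On the morning after the last dose, GWCBD30LPS and GWVehLPS mice received Escherichia coli LPS at 0.33 mg/kg and GWCBD30 and GWVeh mice received PBS, and brains were taken 24 hours later. Each of the 4 groups held 4 mice. Vehicle-treated mice without chemical exposure, 3 with PBS (CtrlVeh) and 3 with LPS (CtrlVehLPS), are given only as a reference level. The labels list no unexposed mice given CBD, so every CBD value below is a value in exposed mice.

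CBD is a plant cannabinoid that does not act as a classical agonist of the cannabinoid receptors CB1 and CB2 and has been linked to many other targets, among them TRP channels, PPAR gamma and serotonin receptors. LPS is a bacterial cell wall component sensed by Toll-like receptor 4, and after a peripheral injection the brain's endothelium, microglia and astrocytes respond with adhesion molecules, complement, Fc receptors and acute-phase genes. Pooling both LPS states asks which genes differ with CBD by a similar amount whether or not the brain has been challenged, and it averages away differences that go in opposite directions with and without LPS.

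The libraries were poly(A)-enriched and the deposited values were read counts per gene. The 16 libraries held 18.2 to 31.2 M counts, and mitochondrially encoded genes took 3.83% to 5.04% of them. In each library levels are given as CPM, the counts of a gene relative to the scaled library total,, which are not scaled by gene length and were not compared between genes. All 15 marker genes listed for excitatory forebrain neurons, all 16 for cerebellar neurons, all 18 for astrocytes and all 21 for homeostatic microglia passed the filter on low counts, as a whole brain would give. Summed red blood cell genes ran from 180 to 832 CPM in GWVeh and from 163 to 368 CPM in GWCBD30. Under LPS they ran from 167 to 274 CPM in GWVehLPS and from 286 to 414 CPM in GWCBD30LPS, without overlap. The part of this difference in other values was not tested. Summed olfactory bulb markers ran from 255 to 346 CPM in the LPS libraries against 258 to 270 CPM in the PBS libraries. Over the 16 libraries Meis2, Gpsm1 and Tshz1 supplied most of these counts (39009, 29711 and 14041), against 412 for Omp. The sum therefore rests mainly on these genes, and how much olfactory bulb each library held was not tested. In whole-brain RNA, fewer cells of a type and less RNA per cell cannot be told apart.

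No gene passed the test in the pooled comparison. Of 19180 genes tested with edgeR's quasi-likelihood test, with LPS state as a block and Benjamini-Hochberg adjustment, 0 (0%) reached an adjusted p of 0.05 and the smallest adjusted p was 0.102, for Cldn5. At an unadjusted p under 0.05 there were 804 genes with a higher level in CBD mice (4.19% of genes tested) and 825 with a lower level (4.3%). The median log2 difference over all genes was 0.00014, near 0 as the library scaling sets it. The 16 libraries bounded most genes closely. Among the 16169 genes with an average of at least 1 CPM (log2 CPM of at least 0), the median 95% interval reached 0.14 to either side on the log2 scale, and the interval lay within 0.5 log2 units of no difference for 13797 genes (85.3%) and within 1 log2 unit for 99.1%. DESeq2 with the same model called 10 genes. Without GWVeh replicate 4 the quasi-likelihood test called 14 genes, without GWCBD30 replicate 1 it called 1, and without any other single library it called 0. That GWVeh library had the lowest level of its group for Cldn5, Calr, Sparc, Tspo, Gstm1, Ndrg2 and Mobp, which lie among the genes with the smallest p, and its levels fell among those of the CBD mice. Its mitochondrial share, 3.93%, was also the lowest of its group, and the part this library's quality or dissection plays was not tested.

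The values below are therefore measurements of genes that did not pass, named because their p was smallest. There are 26 such genes, 18 with a lower and 8 with a higher level in CBD mice, with log2 differences from -0.92 to 0.98. All 26 had the same sign in both LPS states, which their choice by the pooled p favours. Where groups are said below not to overlap under LPS alone, choice by a small p favours that too. The share of all genes without overlap in a single LPS state was not computed, so such statements are descriptions only. The largest adjusted p among them was 0.290, and the smallest adjusted p for a difference between LPS states was 0.686. Of the 26, 20 lay farther from 0 under LPS than without it.

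**Figure D1:**
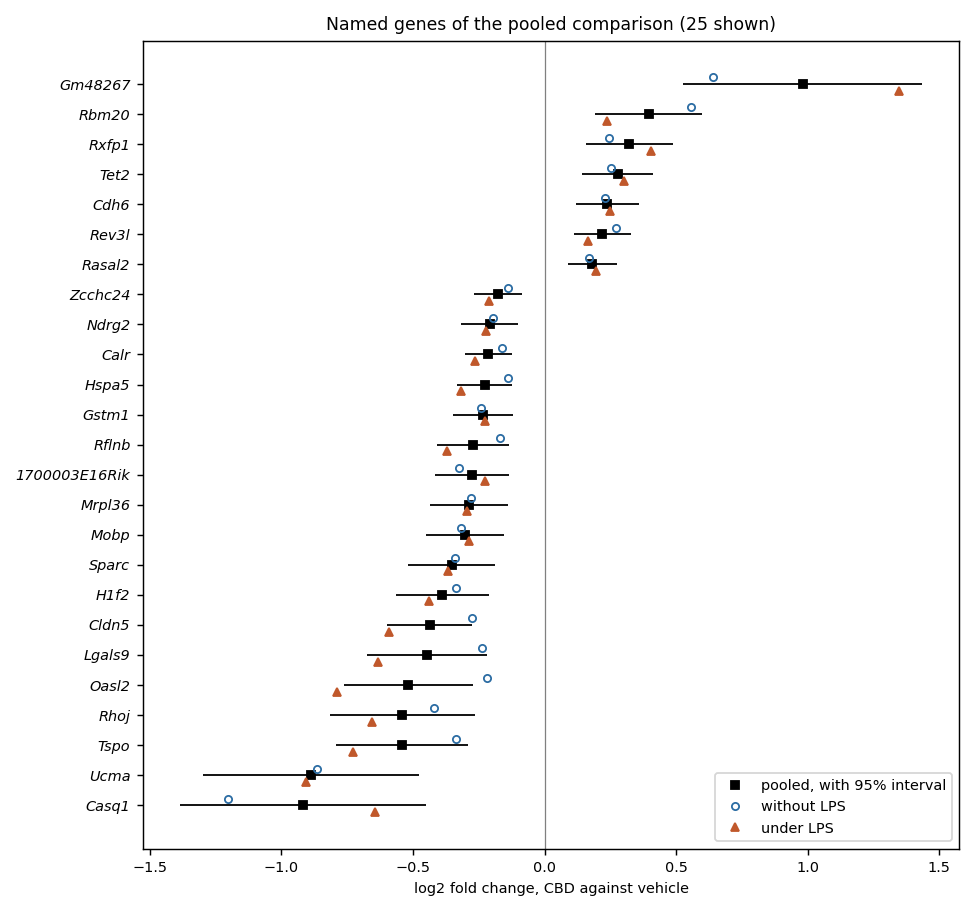
Log2 fold change of CBD against vehicle for 25 of the 26 genes with the smallest p, with black squares and lines for the pooled value and its 95% interval, open circles for the value without LPS and triangles for the value under LPS. Genes run from Casq1 (-0.92) to Gm48267 (0.98); no interval of a gene shown crosses 0, but none of these genes passed the adjusted threshold.

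Cldn5 encodes claudin 5, the tight junction protein that seals brain endothelial cells to each other. It lies on chromosome 16 from 18776847 to 18778262 on the plus strand of GRCm38. The 4 GWVeh libraries gave 21.9, 18.8, 18.5 and 16.1 CPM and the 4 GWCBD30 libraries 17.1, 14.8, 16 and 13.9 CPM, so that without LPS the groups overlapped. Under LPS, GWVehLPS libraries gave 19.7, 25.2, 25.8 and 21 CPM and GWCBD30LPS libraries 15, 13.8, 17.7 and 14.3 CPM, and every CBD library lay below every vehicle library. The pooled log2 difference was -0.44 ± 0.08 (SE, n = 8 against 8, edgeR adjusted p = 0.102), with -0.28 without LPS and -0.59 under LPS (edgeR adjusted p = 0.00471). Unexposed mice lay at 13.2 ± 2.56 CPM with PBS and 15.7 ± 2.29 CPM with LPS (SD, n = 3 each). The CBD means were 15.5 ± 1.39 CPM with PBS and 15.2 ± 1.73 CPM with LPS (SD, n = 4 each). In the pooled comparison Cldn5 passed with DESeq2 (adjusted p = 0.00579), without GWVeh replicate 4 (edgeR adjusted p = 0.00502) and without GWCBD30 replicate 1 (edgeR adjusted p = 0.0429).

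Most other endothelial identity genes lay closer to 0. Of 21 endothelial identity genes, 0 passed and 5 had an unadjusted p under 0.05, all lower in CBD mice. The list's median log2 difference was -0.05 pooled, 0.04 without LPS and -0.18 under LPS. Ly6a, a surface protein of brain endothelium, had 6.74 to 15.5 CPM in GWVeh, 8.23 to 10.2 in GWCBD30, 20.2 to 31.3 in GWVehLPS and 9.65 to 12.9 in GWCBD30LPS. Its pooled log2 difference of -0.70 ± 0.21 (edgeR adjusted p = 0.408) averaged -0.14 without LPS and -1.19 under LPS. Summed over the list, endothelial identity genes ran from 507 to 559 CPM in GWVehLPS and from 455 to 467 CPM in GWCBD30LPS, without overlap, and from 400 to 466 and 389 to 460 CPM in GWVeh and GWCBD30. The part of this summed level in the Cldn5 values was not tested.

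**Figure D2:**
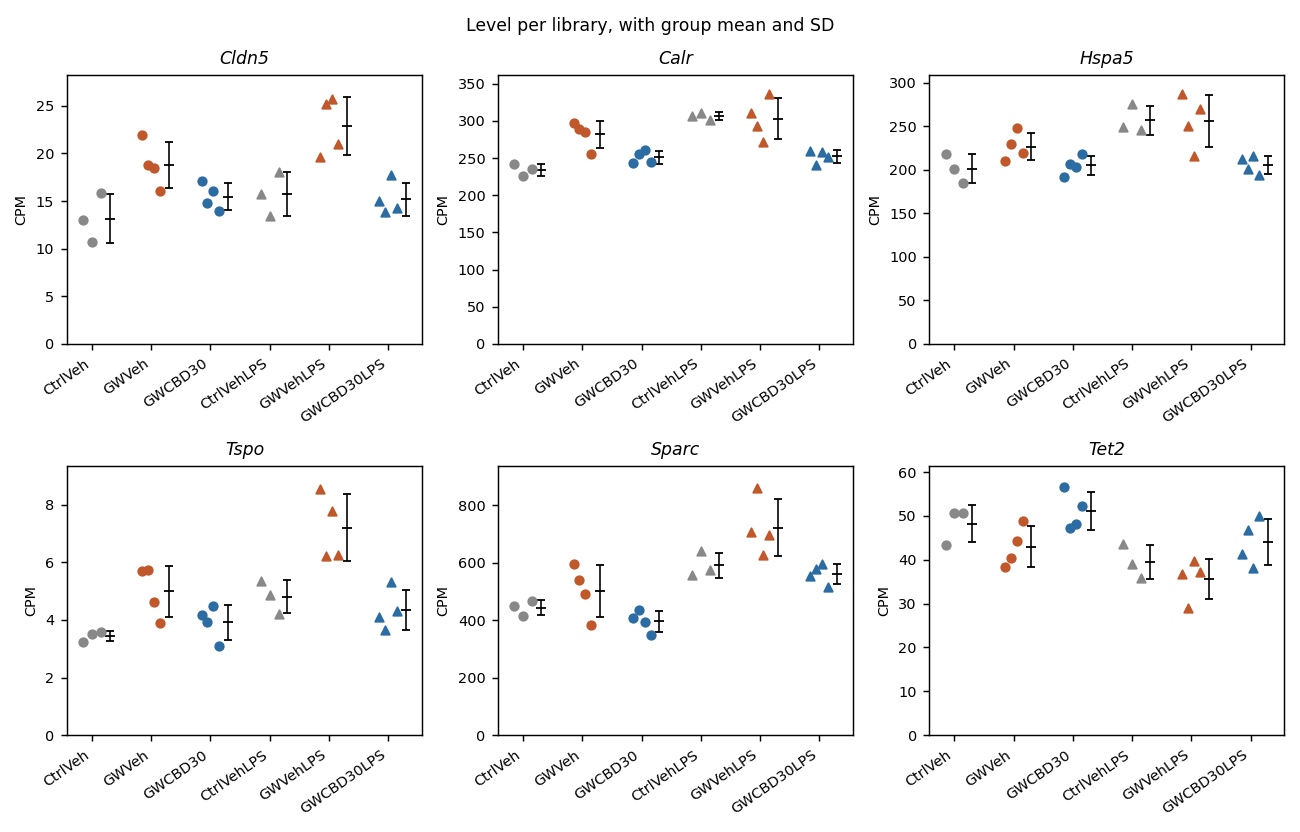
CPM of Cldn5, Calr, Hspa5, Tspo, Sparc and Tet2 in each of the 22 libraries (points; circles PBS, triangles LPS; grey unexposed, orange exposed vehicle, blue exposed CBD), with the group mean and SD beside them. For Cldn5, Calr, Hspa5, Tspo and Sparc the CBD mean is below the vehicle mean in both LPS states, and for Tet2 it is above it; the axes start at 0.

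The named genes Calr and Hspa5 encode chaperones of the endoplasmic reticulum. Proteins that enter the endoplasmic reticulum fold with the help of calreticulin (Calr), which retains calcium and binds glycoproteins, and of the Hsp70 family member Hspa5, also known as BiP, and when unfolded proteins build up the transcription factors ATF6 and XBP1 raise these genes together through a paired promoter motif. That motif, the endoplasmic reticulum stress element, is CCAAT and CCACG separated by 9 bases, and it was searched on both strands of the promoter windows of RefSeq on GRCm38.p6, from 250 bases before to 50 after each gene's start. The promoters of these 2 genes and of Cldn5 are shown with the element in capitals, in the direction of transcription; for Calr it lies on the opposite strand, and the Cldn5 window holds none.
Hspa5 (chr2:34771840-34772139, plus strand): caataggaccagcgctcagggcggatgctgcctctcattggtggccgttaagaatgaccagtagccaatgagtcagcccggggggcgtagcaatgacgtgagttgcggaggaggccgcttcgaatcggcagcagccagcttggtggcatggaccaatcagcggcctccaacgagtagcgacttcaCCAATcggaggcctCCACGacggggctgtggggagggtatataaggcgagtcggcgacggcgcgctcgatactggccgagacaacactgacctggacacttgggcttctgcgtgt
Calr (chr8:84846882-84847181, minus strand): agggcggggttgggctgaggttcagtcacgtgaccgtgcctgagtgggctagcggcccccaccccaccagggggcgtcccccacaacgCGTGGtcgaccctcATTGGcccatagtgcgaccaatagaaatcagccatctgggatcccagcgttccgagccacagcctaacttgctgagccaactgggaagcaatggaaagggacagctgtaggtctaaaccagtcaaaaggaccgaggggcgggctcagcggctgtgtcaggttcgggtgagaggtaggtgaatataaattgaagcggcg
Cldn5 (chr16:18776597-18776896, plus strand): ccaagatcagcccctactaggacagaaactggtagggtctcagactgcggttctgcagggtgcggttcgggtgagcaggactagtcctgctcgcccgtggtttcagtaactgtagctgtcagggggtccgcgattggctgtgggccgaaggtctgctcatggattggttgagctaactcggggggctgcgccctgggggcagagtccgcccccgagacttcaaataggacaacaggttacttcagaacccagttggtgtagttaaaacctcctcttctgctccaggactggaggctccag

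The element starts at base 186 of the Hspa5 window and at base 89 of the Calr window, counted from the window's 5′ end. Among the 28 tested genes listed for heat shock and unfolded protein responses, 23 had a promoter window and 6 of these held the element (Calr, Canx, Creld2, Hsp90b1, Hspa5 and Pdia6). Over all RefSeq windows it was present in 39 of 32851 (0.119%), or 37 of 27025 genes (0.137%). This element was added to the search after the values had been seen, and a match describes the letters of the window only. Of the other motifs searched, CACGTG (E-box, in 7.15% of windows) occurred in the Calr window, TGACGT (cAMP response element core, 7.51%) in the Hspa5 window and TGACNNNGC (antioxidant response element core, 12.4%) in the Calr window, where 1 of its matches overlaps the E-box. TTCNNGAA (heat shock element core, 8.52%) and AGAACA (glucocorticoid response core, 19.0%) occurred in none of the 3 windows shown, and the Cldn5 window held none of the motifs searched.

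Calr had 297, 289, 285 and 256 CPM in GWVeh and 243, 255, 261 and 245 CPM in GWCBD30. Under LPS it had 310, 293, 271 and 336 CPM in GWVehLPS and 260, 240, 258 and 251 CPM in GWCBD30LPS. All 4 CBD libraries lay below all 4 vehicle libraries under LPS, and without LPS 1 vehicle library, replicate 4, fell inside the CBD range. The pooled log2 difference was -0.21 ± 0.04 (edgeR adjusted p = 0.290), with -0.16 without LPS and -0.26 under LPS. Hspa5 had 210, 229, 248 and 220 CPM in GWVeh, 192, 207, 203 and 219 in GWCBD30, 287, 251, 217 and 270 in GWVehLPS and 213, 201, 216 and 194 in GWCBD30LPS. Its groups overlapped without LPS, where the log2 difference was -0.14, and did not overlap under LPS, where it was -0.32. The pooled value was -0.23 ± 0.05 (edgeR adjusted p = 0.290).

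The same direction ran through the list, which includes Calr and Hspa5 and was chosen with earlier results of these data known. None of the 28 listed genes for heat shock and unfolded protein responses passed, 14 had an unadjusted p under 0.05, all lower in CBD mice, against 4.3% of all genes, and 27 of 28 had a negative log2 difference. The median was -0.11 pooled, -0.07 without LPS and -0.14 under LPS, against 0.00014 pooled over all genes, and 22 of 28 were negative in both states. Pdia4, a disulfide isomerase of the same compartment, had a log2 difference of -0.20 ± 0.06 and Xbp1, the transcription factor itself, of -0.18 ± 0.05 (edgeR adjusted p = 0.290 and 0.294). Members share regulators and libraries and are not independent of each other. A lean to lower values was not particular to this list. Of 83 nuclear-encoded oxidative phosphorylation genes 73 were negative, and of 18 choroid plexus genes 17 were. Other lists leaned the other way, such as neuronal immediate-early genes, with 20 of 23 positive.

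Sparc, a secreted matrix-associated glycoprotein made by glia and endothelium, had 596, 540, 492 and 382 CPM in GWVeh and 407, 435, 392 and 350 CPM in GWCBD30. Under LPS it had 708, 859, 627 and 698 CPM in GWVehLPS and 556, 579, 596 and 516 CPM in GWCBD30LPS. The groups did not overlap under LPS, and without LPS only GWVeh replicate 4 lay within the CBD range. The pooled log2 difference was -0.35 ± 0.08 (edgeR adjusted p = 0.290), with -0.34 without LPS and -0.37 under LPS. It passed with DESeq2 (adjusted p = 0.0101) and without GWVeh replicate 4 (edgeR adjusted p = 0.004).

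Ndrg2, an astrocyte-enriched gene, ranged over 742 to 991 CPM in GWVeh and 729 to 811 CPM in GWCBD30, with a pooled log2 difference of -0.21 ± 0.05. Gstm1, a glutathione transferase, ranged over 167 to 237 and 164 to 194 CPM in the same groups, with -0.23 ± 0.06. Mobp, a structural protein of compact myelin, ranged over 688 to 935 and 600 to 693 CPM, with -0.30 ± 0.07. For all 3 the ranges overlapped without LPS through GWVeh replicate 4, and the edgeR adjusted p was 0.290. Of 18 astrocyte identity genes 0 passed, 8 had an unadjusted p under 0.05, all lower in CBD mice, against 4.3% of all genes, and 16 were negative. The median was -0.13 pooled, -0.14 without LPS and -0.12 under LPS. Ntsr2, a neurotensin receptor of astrocytes, had -0.18 ± 0.05 and Sox9, the astrocyte transcription factor, had -0.19 ± 0.05. Of 20 myelin and mature oligodendrocyte genes 0 passed, 7 had an unadjusted p under 0.05, all lower, against the same 4.3%, and the median was -0.11 pooled, -0.20 without LPS and -0.01 under LPS. The myelin median thus lay near 0 under LPS. Summed myelin genes ranged over 6574 to 8622 CPM in GWVeh and 6031 to 6961 CPM in GWCBD30, and over 6903 to 9555 and 7396 to 8548 CPM under LPS, and the groups overlapped in both states.

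Tspo, the translocator protein of the outer mitochondrial membrane that is used as an imaging marker of glial activation, had 5.71, 5.73, 4.61 and 3.89 CPM in GWVeh and 4.17, 3.92, 4.49 and 3.08 CPM in GWCBD30. Under LPS it had 8.54, 6.23, 7.78 and 6.24 CPM in GWVehLPS and 4.09, 3.66, 5.32 and 4.33 CPM in GWCBD30LPS. The groups overlapped without LPS and not under LPS. The pooled log2 difference was -0.54 ± 0.12 (edgeR adjusted p = 0.290), with -0.34 without LPS and -0.73 under LPS. Tspo overlaps Mcat on the opposite strand, and since the strand setting of the counting is not given in the sources used here its reads cannot be told from reads of that gene. Oasl2, an interferon-stimulated gene, had 5.20 to 6.22 CPM in GWVeh, 3.79 to 5.39 in GWCBD30, 7.95 to 10.8 in GWVehLPS and 3.94 to 6.85 in GWCBD30LPS. Its log2 difference was -0.52 ± 0.12 pooled, -0.22 without LPS and -0.79 under LPS. Lgals9, a galectin of immune cells, had -0.45 ± 0.11 pooled, -0.24 without LPS and -0.63 under LPS. All 3 thus had the larger size under LPS, and the edgeR adjusted p of a difference between states was 0.864 for Tspo and 0.688 for Oasl2.

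Immune and activation lists had negative pooled medians, and in each of them the median lay farther from 0 under LPS than without it. None of their members passed in the pooled comparison, and the counts of members at an unadjusted p under 0.05 given here stand beside 4.3% of all genes tested that were lower at that p. Of 21 endothelial activation and acute-phase genes 14 had an unadjusted p under 0.05, all lower in CBD mice, and the median was -0.36 pooled, 0.09 without LPS and -0.69 under LPS. Lrg1, an endothelial acute-phase glycoprotein, led this list with -1.15 ± 0.31 (edgeR adjusted p = 0.290), at 0.569 to 2.1 CPM in GWVeh, 0.554 to 0.927 in GWCBD30, 1.22 to 3.31 in GWVehLPS and 0.422 to 1.19 in GWCBD30LPS. Of 18 complement genes 5 had an unadjusted p under 0.05, all lower, with medians of -0.22 pooled, 0.02 without LPS and -0.43 under LPS. Of 38 interferon-stimulated genes 5 did, all lower, with -0.22, 0.08 and -0.46. In these 3 lists the median changed sign between the LPS states.

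Of 21 homeostatic microglia genes 9 had an unadjusted p under 0.05, all lower, against 4.3% of all genes, with medians of -0.16 pooled, 0.03 without LPS and -0.32 under LPS. P2ry6, a microglial nucleotide receptor, had the larger size without LPS, with -0.53 ± 0.16 pooled, -0.69 without LPS and -0.40 under LPS (edgeR adjusted p = 0.319). Ly86, a partner protein of a Toll-like receptor relative, had -0.51 ± 0.15 pooled, 0.01 without LPS and -0.97 under LPS. Of 28 genes of activated and disease-associated microglia 10 had an unadjusted p under 0.05, all lower, with -0.15, -0.06 and -0.22, led by the inhibitory Fc receptor gene Fcgr2b at -0.61 ± 0.16 (edgeR adjusted p = 0.290), which split into -0.07 without LPS and -1.09 under LPS. Of 21 MHC and antigen presentation genes 5 did, all lower, with -0.12, -0.05 and -0.22, and H2-K1, an MHC class I heavy chain, had -0.31 ± 0.09. Of 31 reactive astrocyte genes 10 did, all lower, with -0.19, -0.05 and -0.35, and Fbln5, an elastic fibre protein, had -0.64 ± 0.16. Summed homeostatic microglia genes ranged over 1119 to 1408 CPM in GWVehLPS and 886 to 1004 CPM in GWCBD30LPS, and over 678 to 901 and 655 to 755 CPM in GWVeh and GWCBD30. Sparc, described above as made by glia and endothelium, is on this list and supplied a large part of these sums. The sums therefore do not measure microglial RNA alone. The summed level of the list moved with these values under LPS, and its part in them was not tested.

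**Figure D3:**
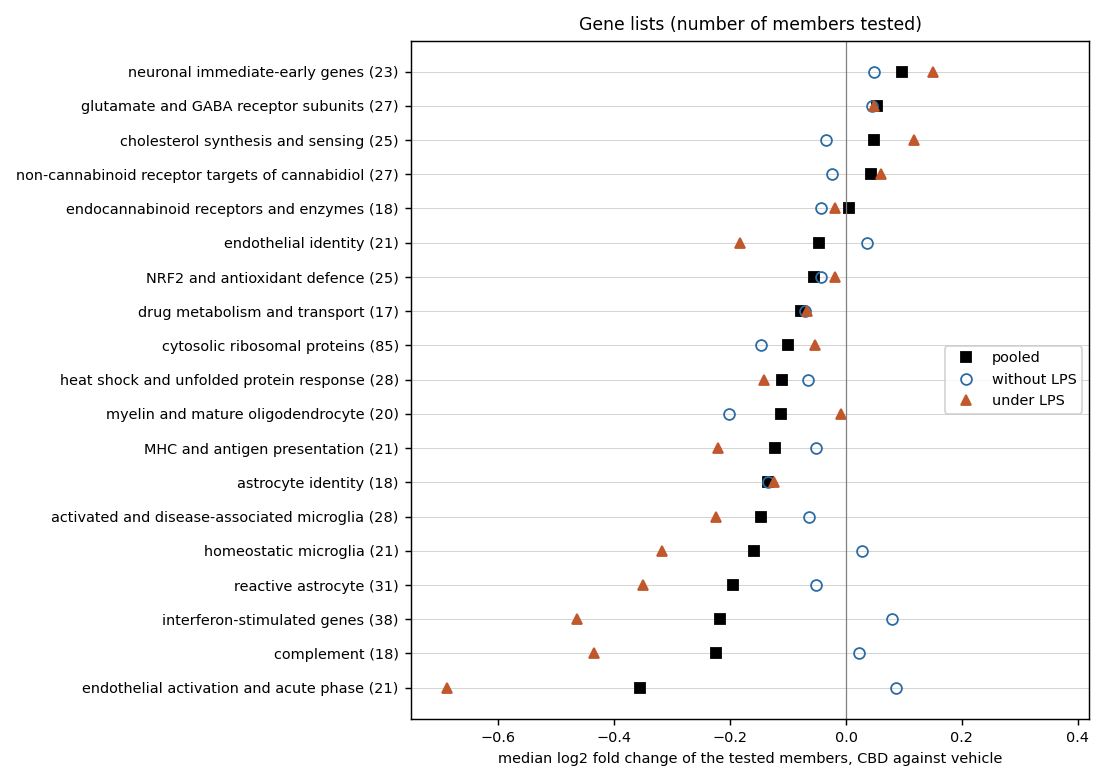
Median log2 fold change of CBD against vehicle over the tested members of 19 gene lists (number of members in brackets), pooled (squares), without LPS (open circles) and under LPS (triangles). Immune and endothelial activation lists spread widely between states (endothelial activation from 0.09 to -0.69), whereas the astrocyte identity list lies near -0.13 in both; no member of any list passed the pooled test.

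Of the remaining named genes with a lower level in CBD mice, H1f2, a linker histone, had 17.5, 17.4, 21.9 and 12.8 CPM in GWVeh, 14.2, 12.9, 16.1 and 11.8 in GWCBD30, 20.8, 19.9, 17.7 and 20.2 in GWVehLPS and 12.9, 17.1, 14.1 and 14.1 in GWCBD30LPS. The groups did not overlap under LPS, and the pooled log2 difference was -0.39 ± 0.09. Ucma, a matrix protein first described in cartilage, had -0.89 ± 0.20 at 0.555 to 3.66 CPM, and Casq1, the calcium store protein of skeletal muscle, had -0.92 ± 0.23 at 0.555 to 2.62 CPM. Both have few reads in brain, so their intervals were wide (-1.30 to -0.48 and -1.38 to -0.45). Rhoj, an endothelial small GTPase, had -0.54 ± 0.14, and Rflnb, a filamin-binding protein, had -0.27 ± 0.07. Zcchc24, a zinc finger gene, had -0.18 ± 0.04, Mrpl36, a mitochondrial ribosomal protein gene, had -0.29 ± 0.07, and 1700003E16Rik had -0.28 ± 0.07. The edgeR adjusted p was 0.290 for each, and Mrpl36 overlaps Ndufs6 on the opposite strand. Other genes given values in the text also overlap an annotated gene on the opposite strand, among them Casq1, Tet2, Rev3l, Rbm20, Rasal2, Icam1 and Rpl32. The uncertainty given for Tspo applies to them too.

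The 8 genes with a higher level in CBD mice were led in size by Gm48267, at 0.98 ± 0.22, which GENCODE lists as a transcript to be experimentally tested and which lies within Cadps on the same strand, so its reads are uncertain. Tet2, a dioxygenase that oxidises 5-methylcytosine in DNA, had 38.3, 40.4, 44.2 and 48.9 CPM in GWVeh and 56.6, 47.3, 48.1 and 52.3 CPM in GWCBD30. Under LPS it had 36.8, 28.9, 39.6 and 37.1 CPM in GWVehLPS and 41.4, 46.8, 38.1 and 49.97 CPM in GWCBD30LPS. The groups overlapped in both states, and the pooled log2 difference was 0.28 ± 0.07, with 0.25 without LPS and 0.30 under LPS. Rev3l, the catalytic subunit of DNA polymerase zeta, had 0.22 ± 0.05. Rxfp1, the relaxin receptor, had 0.32 ± 0.08, and Rbm20, a splicing regulator, had 0.40 ± 0.10. The edgeR adjusted p was 0.290 for each of these genes.

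Cdh6, a cadherin, and Rasal2, a Ras GTPase-activating protein, were the only 2 of the 26 named genes whose CBD and vehicle libraries did not overlap in either state. Choice by the pooled p of the same libraries favours such separation, and the number of genes that separate by chance was not computed. Cdh6 had 19.2 to 23.4 CPM in GWVeh and 24.1 to 26.8 in GWCBD30, and 18.2 to 21.7 in GWVehLPS and 22.4 to 26.3 in GWCBD30LPS, with a log2 difference of 0.24 ± 0.06. Rasal2 had 84.7 to 102 and 102 to 115 CPM without LPS and 78.6 to 90.7 and 94.8 to 106 CPM under LPS, with 0.18 ± 0.05, its ranges without LPS meeting only through rounding. Over all genes tested, 10 were higher in every CBD library than in every vehicle library of the same LPS state (0.0521%) and 1 was lower (0.00521%). The others were Slc23a2, Csmd1, Ddi2, Top3b, Kif16b, Pus7, Ankrd53 and Gm16091, all higher, and Thyn1, which was lower with a log2 difference of -0.14 ± 0.05. Slc23a2, the ascorbate transporter, had 0.09 ± 0.04.

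Lists of known or proposed CBD targets had pooled medians of 0.0048 and 0.04. Of 18 endocannabinoid receptors and enzymes 0 passed, and 1 was higher and 1 lower at an unadjusted p under 0.05, as about 4.19% and 4.3% of all genes were. The median was 0.0048 pooled, with -0.04 without LPS and -0.02 under LPS. Abhd4, a lipase of anandamide precursors, had -0.14 ± 0.05 and Plcb1, a phospholipase C, had 0.12 ± 0.05. Cnr2, the CB2 receptor gene, had too few reads for a close estimate, with -0.69 ± 0.39 pooled, -0.13 without LPS and -1.26 under LPS (edgeR adjusted p = 0.643). Cnr1, the CB1 receptor gene, which is outside the naming rule and was chosen after its value was seen, had 0.03 ± 0.05. Of 27 genes for non-cannabinoid receptor targets of CBD 0 passed, with 3 higher and 1 lower at an unadjusted p under 0.05. Of the 27, 19 were positive, and the median was 0.04 pooled, -0.02 without LPS and 0.06 under LPS. Trpv4, a calcium-permeable channel, had 3.65 to 5.25 CPM in GWVeh, 3.48 to 4.97 in GWCBD30, 5.76 to 7.72 in GWVehLPS and 3.66 to 5.44 in GWCBD30LPS. Its log2 difference of -0.37 ± 0.13 pooled was -0.04 without LPS and -0.68 under LPS. Pparg, the nuclear receptor PPAR gamma, had 0.36 ± 0.13 pooled, with 0.29 without LPS and 0.42 under LPS (edgeR adjusted p = 0.464). Trpv4 also stands on the choroid plexus list, whose median was -0.14 pooled and whose summed level ranged over 820 to 1297 CPM in the vehicle groups and 848 to 1230 CPM in the CBD groups.

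Of 17 drug metabolism and transport genes 0 passed, and 3 were lower and 1 was higher at an unadjusted p under 0.05, against 4.3% and 4.19% of all genes; the median was -0.08. The cytochrome P450 gene Cyp4f14 had -0.25 ± 0.08 and Ahr, the aryl hydrocarbon receptor, had 0.24 ± 0.09. Of 25 NRF2 and antioxidant genes 0 passed and 3 were lower, against the same 4.3%, with a median of -0.06. Gpx3, a secreted glutathione peroxidase, had 15.4 to 27.4 CPM in GWVeh, 12.3 to 21.5 in GWCBD30, 32.5 to 41.6 in GWVehLPS and 20.3 to 29.6 in GWCBD30LPS, with a log2 difference of -0.42 ± 0.12 (edgeR adjusted p = 0.379). It passed without GWVeh replicate 4 (edgeR adjusted p = 0.0364). Prdx6, a peroxiredoxin, had -0.17 ± 0.05.

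Of 85 cytosolic ribosomal protein genes 0 passed, 30 had an unadjusted p under 0.05, all lower in CBD mice, against 4.3% of all genes, and 78 were negative, with medians of -0.10 pooled, -0.15 without LPS and -0.05 under LPS. Rpl32 and Rpl6 led with -0.19 ± 0.06 and -0.13 ± 0.05 (edgeR adjusted p = 0.402 and 0.427). These genes have many near-identical pseudogene copies between which reads can be split, so single members are uncertain. Their summed level ranged over 9506 to 11869 CPM in GWVeh and 9159 to 10056 CPM in GWCBD30, and over 9738 to 11190 and 9884 to 10515 CPM under LPS, and the groups overlapped in both states.

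Other lists also had pooled medians above 0. Of 25 cholesterol synthesis and sensing genes 0 passed and 6 were higher at an unadjusted p under 0.05, with medians of 0.05 pooled, -0.03 without LPS and 0.12 under LPS. Lss, the lanosterol synthase gene, had 0.14 ± 0.05. Of 27 glutamate and GABA receptor subunits 0 passed and 4 were higher, with a median of 0.05, and the NMDA receptor subunits Grin2a and Grin2b each had 0.17 ± 0.06. Of 23 neuronal immediate-early genes 0 passed, 4 were higher and 2 lower, with a median of 0.10, and Nr4a1, an activity-induced nuclear receptor, had 0.31 ± 0.11. Of 14 genes for cold-inducible RNA-binding proteins and splicing 0 passed and 4 were higher, all 14 were positive, and the median was 0.06 pooled, 0.10 without LPS and 0.02 under LPS. Over all genes tested 4.19% were higher and 4.3% lower at that p.

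The values without and under LPS come from separate libraries, so they can be set side by side. Across the 16169 genes with a log2 CPM of at least 0, the log2 differences in the 2 states had a Spearman correlation of 0.082 and a Pearson correlation of 0.057, and 8692 genes (53.8%) had the same sign. Genes of a library share its depth and dissection and are not independent replicates, so no p is given. Without LPS 0 genes passed (0%), with 1307 at an unadjusted p under 0.05 by edgeR and 0 called by DESeq2. The genes with the smallest p there were the low-count gene Gm30382 (log2 difference 2.23) and Ankrd53, an ankyrin repeat gene (0.92), and both were much nearer 0 under LPS, at 0.40 and 0.21. Under LPS 5 genes were higher in CBD mice (0.0261%) and 45 were lower (0.235%). For scale, in the same additive fit LPS raised 213 genes (1.11%) and lowered 51 (0.266%), 264 genes in all, and this total was 142 without GWVeh replicate 3 and 161 without GWVeh replicate 4.

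The 50 genes that passed under LPS had a median log2 difference of -0.72 under LPS, 0.0013 without LPS and -0.38 in the pooled comparison. Their choice by the p under LPS favours a large value there, and the pooled comparison includes the same LPS libraries. Without LPS 25 of the 50 had the same sign, and 1 had an unadjusted p under 0.05 in the same direction and 1 in the opposite direction. Over all 19180 genes tested, 1307 had such a p without LPS in either direction. In the pooled comparison 43 of the 50 had an unadjusted p under 0.05, although none passed, against 1629 of all 19180 genes. The shared LPS libraries favour a small pooled p for these 50. The complement genes C1qa and C1qb and the microglial gene Olfml3 had the smallest p under LPS. C1qa had 30.4 to 39.5 CPM in GWVeh, 30.8 to 40.4 in GWCBD30, 64.4 to 73.6 in GWVehLPS and 39.5 to 46.5 in GWCBD30LPS. The groups overlapped without LPS, at a log2 difference of -0.0035, and did not under LPS, at -0.66 (edgeR adjusted p = 0.000146). The pooled value of -0.34 ± 0.11 lay between these 2 values. C1qb had -0.01 and -0.58 in the 2 states, and Olfml3 had 0.05 and -0.81.

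**Figure D4:**
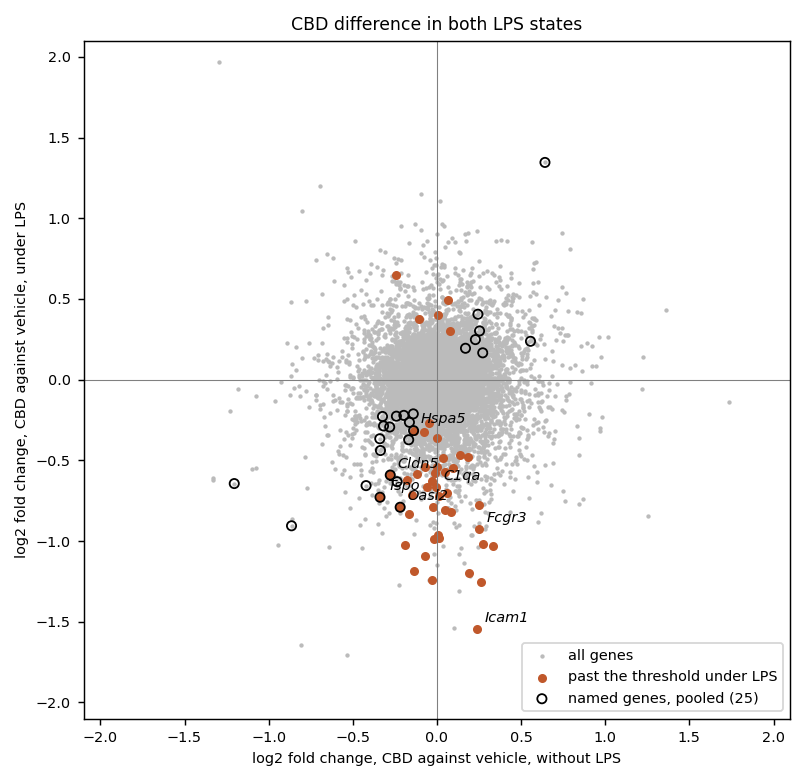
Log2 fold change of CBD against vehicle without LPS (x axis) and under LPS (y axis) for 16169 genes (grey; 2 lie outside the axes), with the 46 of the 50 genes past the threshold under LPS that have a log2 CPM of at least 0 in orange and 25 of the 26 named genes of the pooled comparison ringed. Most orange points lie below 0 on the y axis and near 0 on the x axis, while the ringed genes lie in the lower left and upper right parts of the plot. Choice by the p under LPS (orange) and by the pooled p (ringed) favours these positions.

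The difference between states was itself tested. The CBD effect differed between LPS states for 10 genes (0.0521%), and for all 10 it was more negative under LPS. The smallest adjusted p belonged to Fcgr3, an activating Fc gamma receptor gene, whose log2 difference was 0.25 without LPS and -0.92 under LPS (edgeR adjusted p = 0.0128 for the interaction). Adgrl4, an endothelial adhesion receptor gene, had 0.25 and -0.78 (edgeR adjusted p = 0.0136), and Icam1, an endothelial adhesion molecule, had 0.24 and -1.54 (edgeR adjusted p = 0.0137). The count of 10 varied from 2, without GWVeh replicate 2 or without GWCBD30 replicate 1, to 21, without GWVehLPS replicate 2, and 13 of the 16 libraries moved it by over 1.5 times when left out. The count of 50 under LPS varied from 24 without GWCBD30LPS replicate 4 and 29 without GWCBD30LPS replicate 1 to 80 without GWCBD30 replicate 4 and 89 without GWVehLPS replicate 2. Among the 1629 genes at an unadjusted p under 0.05 in the pooled comparison, 1588 had the same sign in both states, and 75 had an unadjusted p under 0.05 in each state separately. Choice by the pooled p favours both counts. Among all genes with a log2 CPM of at least 0, 53.8% had the same sign.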

How the data were processed

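Per the labels' protocols, whole-brain RNA of integrity number 8.5 or more was made into poly(A)-enriched stranded libraries, read as paired ends of 150 bp and aligned to GRCm38/mm10. The authors deposited raw read counts per gene, not normalized, for 22 libraries. Which aligner, counter, strand setting and annotation release were used is not given in the sources used here. GENCODE release M21 gave locations for 18832 of the 19180 identifiers tested.

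The 16 exposed libraries were modelled in R 4.3.3 with edgeR 4.0.16 (filterByExpr with 4 groups, TMM, robust quasi-likelihood), with LPS state and CBD as additive terms, leaving 13 residual degrees of freedom (common biological coefficient of variation 0.0970). Within-state values and the interaction came from a fit of 4 group means. All tests were two-sided, adjusted over all genes tested by the Benjamini-Hochberg method, with a threshold of 0.05. The standard error is the log2 fold change divided by the square root of F. CPM are on 1 TMM scale over all 22 libraries, and a floor of 3 counts corresponded to 0.0963 to 0.175 CPM. DESeq2 1.42.0, limma 3.58.1 and sva 3.50.0 served for alternatives. The code was tested on simulated data.

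The libraries were chosen by their labels, and the gene lists were chosen with earlier results of these data known. The rule named the 24 genes with the smallest pooled p and a log2 CPM of at least 0, 2 more to replace genes without a proper symbol, up to 4 leading genes per list described and up to 3 for each other comparison. Replicates are separate libraries numbered in the labels. No source used here gives litter, cage or library batch, so p-values measure the spread between these libraries, which may be partly technical. The text gives values for a part of the genes this rule names, and 1 of the 26 pooled genes is not reported here.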

Additional observations from a re-analysis of the deposited data

Results flagged for a closer look

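The CBD effect differed between LPS states, by the test of the interaction in edgeR, for 6 of the genes named above. The adjusted p was 0.0128 for Fcgr3, 0.0136 for Adgrl4, 0.0137 for Icam1, 0.0272 for C1qa, 0.0272 for Olfml3 and 0.0451 for C1qb, and in all 6 the CBD value was more negative under LPS.

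Among 256 sets of 4 libraries (64 named genes in 4 groups), 15 held a library that stood apart from the other 3 by Dixon's 95% critical value, which chance alone exceeds in about 1 in 20 sets. Of these, 4 were GWCBD30 replicate 4, at 0.555 CPM for Ucma (lowest), 102 for Ntsr2 (lowest), 189 for Plcb1 (highest) and 191 for Grin2a (highest). GWVeh replicate 4 was lowest for Ntsr2 at 113 CPM and highest for Lss at 54.0 CPM, and GWVeh replicate 2 was lowest for Fosl2 at 21.2 CPM. In GWVehLPS, replicate 1 was highest for Zcchc24 at 124 CPM and lowest for Pparg at 2.00 CPM, replicate 2 was lowest for Ankrd53 at 2.00 CPM, and replicate 3 was lowest for Fosl2 at 24.9 CPM. In GWCBD30LPS, replicate 1 was highest for Psmb8 at 3.57 CPM, replicate 2 highest for Plcb1 at 189 CPM, replicate 3 lowest for Gm48267 at 1.49 CPM and replicate 4 highest for Ahr at 11.9 CPM.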

How the results depend on the processing

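The pooled count of 0 genes held with RLE and upper-quartile scaling, a stricter filter on low counts, limma voom with quality weights, all 22 libraries as 6 group means, no LPS block, 1 surrogate variable, choroid plexus or olfactory bulb and cerebellar scores as covariates, an adjusted p threshold of 0.1 and the PBS libraries alone. It was 10 with DESeq2, 100 with no filter on low counts, 2 with 4 group means and the interaction allowed (Cldn5 and C1qa), 64 with the LPS libraries alone and 1 without the 3 LPS libraries with raised olfactory bulb markers, a set chosen after seeing the data. Of the 100 genes called with no filter, 97 were among the 19180 genes of the reported fit and all 97 had the same sign there. Leaving out single libraries gave 0 to 14 calls in the pooled comparison, 2 to 21 for the interaction, 24 to 89 under LPS, 0 without LPS and 142 to 298 for LPS against PBS. The interaction count of 10 was 46 with no filter, 25 with DESeq2 and 5 without the 3 LPS libraries. The count of 50 under LPS was 160 with no filter and 108 with DESeq2. The 264 LPS calls were 571 with no filter, 512 with DESeq2, 91 with the choroid plexus score, 150 with the olfactory bulb and cerebellar scores, 505 at a threshold of 0.1 and 138 without the 3 LPS libraries. The cause of these shifts was not tested.

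Whether a shared replicate number marks a shared litter, cage or batch is not given, and the correlations here cannot decide it. Over 8 pairs of libraries with the same number, deviations from group means had correlations from -0.064 to 0.23 (median 0.021, against -0.022 for other pairs), 1 of 8 was over 0.1, and 2 of 8 vehicle libraries correlated best with their own number. With the replicate block the pooled count was 4 (Sparc, Gpx3, Cldn5 and Etnppl, all lower in CBD mice), and with single libraries then left out it was 2 to 6, apart from 8 without GWVeh replicate 3, 9 without GWVehLPS replicate 1 and 14 without GWVeh replicate 4 or GWVehLPS replicate 3. The interaction count was 16 and the count under LPS 75 with that block.

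For the 100 named genes, 3192 of 3291 alternative values kept their direction and side of the threshold, 89 kept their direction and passed, and 10 changed sign, all with the PBS libraries alone: Pecam1 0.0858, Ly86 0.00934, Fcgr1 0.0142, Itgam 0.0498, B2m 0.00324, Cp 0.0633, Fcgr3 0.252, Adgrl4 0.253, Icam1 0.240 and Olfml3 0.0487. Under other scaling or with single libraries left out, all 900 alternative medians of the 50 lists moved by less than the SD between libraries. Leaving out a single library would rarely shift a median by that much, so this count cannot show that the medians are stable. In 8 lists with medians of at most 0.0641 in size (the endocannabinoid list among them), 33 of these alternative medians changed sign. Medians also differed in sign between LPS states for some lists, such as endothelial activation (0.09 without LPS, -0.69 under LPS), complement (0.02 and -0.43) and interferon-stimulated genes (0.08 and -0.46). Depth limits genes near the floor, such as Gm30382, Ucma and Casq1.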
